A study of Mus musculus with 6 samples.

Results

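The mitochondrial genome encodes core subunits of the respiratory chain, and 10 of its protein-coding transcripts were examined here among 23394 genes matched in the annotation. They were taken by symbol: mt-Nd1, mt-Nd2, mt-Nd4, mt-Nd5 and mt-Nd6 of complex I, mt-Cytb of complex III, mt-Co1, mt-Co2 and mt-Co3 of complex IV, and mt-Atp6 of complex V. The RNA came from F4/80+ cells of the liver of C57BL/6 males, aged 3 months, all of which were given intraperitoneal carbon tetrachloride (CCl4), a hepatotoxin that causes fibrosis when it is given repeatedly. There were 3 libraries from knockout (KO) and 3 from wild-type (WT) mice. The labels did not name the gene that was knocked out, so no targeted gene could be checked, and no untreated group was analysed here. The cells were selected by magnetic sorting on F4/80, a macrophage surface protein, and their polyadenylated RNA was made into strand-specific libraries. Whether libraries of a group came from different animals was not stated, and the p-values below reflect only the variation among these 6 samples, which may be technical.

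Mitochondrial DNA is transcribed from both strands as long precursors, which are cut at the tRNAs that lie between the coding genes. All of these genes but mt-Nd6 are read from the strand annotated as plus, and the transcripts are single exons. In GRCm38 they lie at chrM:2751-3707 (mt-Nd1), chrM:3914-4951 (mt-Nd2), chrM:5328-6872 (mt-Co1), chrM:7013-7696 (mt-Co2), chrM:7927-8607 (mt-Atp6), chrM:8607-9390 (mt-Co3), chrM:10167-11544 (mt-Nd4), chrM:11742-13565 (mt-Nd5), chrM:13552-14070 (mt-Nd6) and chrM:14145-15288 (mt-Cytb). Electrons enter the chain at complex I, pass through complex III to the oxidase, complex IV, and drive the proton gradient used by ATP synthase, complex V. Each complex also needs subunits encoded in the nucleus, and liver cells such as hepatocytes are rich in mitochondria.

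Some of these transcripts end in an incomplete stop codon, which the addition of poly(A) completes. The last 30 bases of 4 transcripts in GENCODE's GRCm38 sequences are given because the libraries were selected for poly(A), with the final codon, or the single base left of it, in capitals.
mt-Cytb, chrM:15259-15288, plus strand: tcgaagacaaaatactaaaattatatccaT
mt-Nd4, chrM:11515-11544, plus strand: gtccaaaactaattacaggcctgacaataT
mt-Nd2, chrM:4922-4951, plus strand: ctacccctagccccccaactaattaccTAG
mt-Nd6, chrM:13552-13581, minus strand: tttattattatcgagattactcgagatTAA
The lengths of mt-Cytb and mt-Nd4, 1144 and 1378 bases, leave a remainder of 1 when divided by 3, so that their annotated sequence stops at a lone T.

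Whole reads were recovered from the deposited values, with 1 transcript kept per gene. The KO libraries held 10790842, 12818227 and 19163317 reads and the WT libraries 15027644, 16600429 and 22157238. All 16 macrophage markers were read in each library, Adgre1, which encodes F4/80, at 5254 ± 1233 normalised counts in KO and 6208 ± 1613 in WT libraries (SD, n = 3 each). Markers of hepatocytes, endothelium, stellate cells and blood were read as well and are given beside the results they move with. In bulk RNA of this kind, fewer cells of a type and less RNA per cell cannot be told apart.

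Reads were found for 7 of the 10 transcripts and nearly none for the other 3. mt-Co2 had 0, 0 and 2 reads in KO libraries and 0 in each WT library. The mt-Co3 transcript had 0, 0 and 6 reads in KO libraries, against 3, 5 and 0 in WT libraries. For mt-Atp6 the counts were 0, 2 and 0 in KO libraries, against 0, 4 and 0 in WT libraries. A count of 0 allows up to 3 reads, which is 0.157 to 0.278 CPM (reads scaled to the library's total) in KO libraries and 0.135 to 0.200 CPM in WT libraries. By contrast, mt-Co1 held 517575, 688557 and 1218194 reads in KO libraries and 853124, 1402924 and 473575 in WT libraries. mt-Co2, mt-Co3 and mt-Atp6 failed the filter on low values and were not tested, so they give no level for complex V and none for 2 of the 3 oxidase subunits.

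The 3 transcripts with nearly no reads were the ones with a near-identical nuclear copy over nearly their whole length. Mitochondrial DNA has been inserted into nuclear chromosomes in the past, and such inserts are annotated as pseudogenes. Transcripts were aligned with blastn to all nuclear transcripts of the annotation. The first 681 of 684 bases of mt-Co2 were identical to Gm28661, the first 678 of 681 bases of mt-Atp6 to Gm10925 and the first 783 of 784 bases of mt-Co3 to Gm28437. All 3 pseudogenes lie on the minus strand of chromosome 1, at chr1:24614885-24615565, chr1:24613974-24614651 and chr1:24613189-24613971 in GRCm38. They too had nearly no reads, with 1, 5 and 1 on Gm28661 in KO libraries against 0, 9 and 3 in WT libraries, and at most 8 reads on either of the others in any library. The sources used here do not give how reads that match several places were treated, and its part in these counts was not tested.

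The first 60 bases of mt-Co2 are shown with the same stretch of Gm28661 and of Gm13341, a copy on chromosome 2 that was 95.9% identical to mt-Co2 over its whole length. Capitals mark bases that differ from mt-Co2.
mt-Co2, chrM:7013-7072, plus strand: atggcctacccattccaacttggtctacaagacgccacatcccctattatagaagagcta
Gm28661, chr1:24615506-24615565, minus strand: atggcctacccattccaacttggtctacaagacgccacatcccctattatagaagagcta
Gm13341, chr2:22587903-22587962, minus strand: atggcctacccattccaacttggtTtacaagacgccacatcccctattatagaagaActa
Gm13341 had 52, 101 and 146 reads in KO libraries and 76, 196 and 42 in WT libraries, more in every library than mt-Co2 itself.

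Among the transcripts with reads, 2 shared part of their length with the same insert. Bases 1063 to 1545 of mt-Co1, 31.3% of the transcript, matched Gm29216 with 1 mismatch, and bases 1 to 876 of mt-Nd4, 63.6% of the transcript, were identical to Gm28439. The points where the copies begin and end are shown, with the bases of the mitochondrial transcript that lie outside the copy in capitals. In Gm29216, the capital is the base that differs from mt-Co1.
mt-Co1, chrM:6360-6419, plus strand: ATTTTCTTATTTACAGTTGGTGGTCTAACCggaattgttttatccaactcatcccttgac
Gm29216, chr1:24616159-24616188, minus strand: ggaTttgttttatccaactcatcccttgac
mt-Nd4, chrM:11013-11072, plus strand: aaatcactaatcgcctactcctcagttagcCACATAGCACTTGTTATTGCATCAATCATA
Gm28439, chr1:24611535-24611564, minus strand: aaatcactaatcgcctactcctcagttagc
No copy this close, identical or with 1 mismatch, was found for mt-Nd1, mt-Nd2, mt-Nd5, mt-Nd6 or mt-Cytb. Levels per length are therefore given below both over the whole transcript and over the bases outside such a copy, 1062 for mt-Co1 and 502 for mt-Nd4. Less close matches were Gm13339, 96.7% identical to mt-Nd2 over 510 bases, and Gm4076, 95.2% identical to mt-Nd5 over 954 bases. Only annotated nuclear transcripts were searched.

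**Figure D1:**
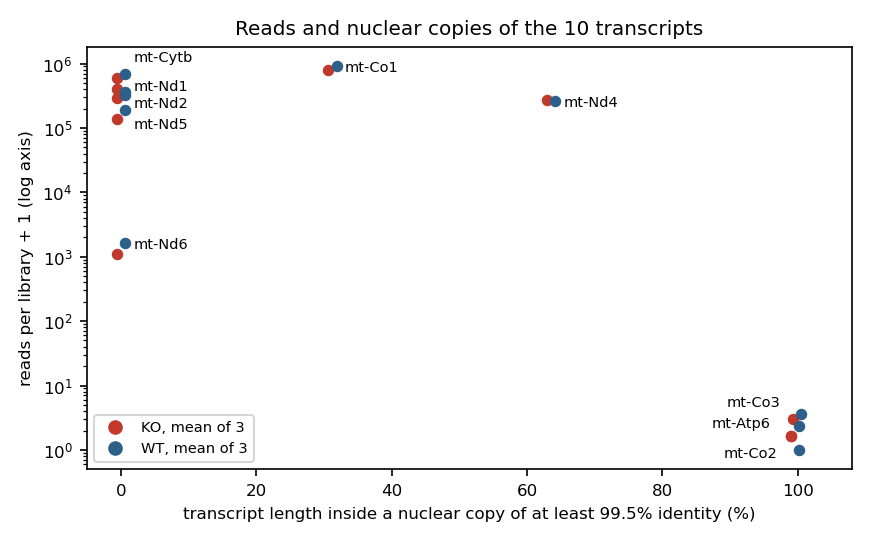
The horizontal axis is the percent of each transcript's length inside a near-identical nuclear copy and the vertical log axis is reads per library plus 1, with a KO point (left) and a WT point (right) as means of 3 libraries. The 7 transcripts with at most 63.6% of their length in such a copy lie above 1000 reads and the 3 with over 99% lie below 10.

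With 1 transcript kept per gene, the 7 tested transcripts took 5.98% to 26.8% of a library's reads. The share was 15.8%, 15.8% and 19.5% in KO replicates 1, 2 and 3, against 16.1%, 26.8% and 5.98% in WT replicates 1, 2 and 3. The KO values lie inside the range of the WT values, whose lowest library, WT replicate 3, and highest library, WT replicate 2, were the extremes of all 6. The 95% Wilson intervals of these extremes, 5.97% to 5.99% and 26.7% to 26.8%, cover counting error only. The mean share was 17.1% ± 2.12 in KO libraries and 16.3% ± 10.4 in WT libraries (SD, n = 3 each), a difference of 0.76 percentage points that is far smaller than the spread between WT libraries. Its sign was not stable: taken as a percent of the reads outside the mitochondrial chromosome, the difference was -0.147. Over the reads of all transcripts the shares were smaller, because reads on further transcripts of other genes join the total. This total was 25713225 to 46037972 reads in KO and 36092116 to 58613427 in WT libraries. The shares were then 6.65%, 6.51% and 8.12% in KO replicates 1 to 3, against 6.72%, 11.8% and 2.26% in WT replicates 1 to 3.

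**Figure D2:**
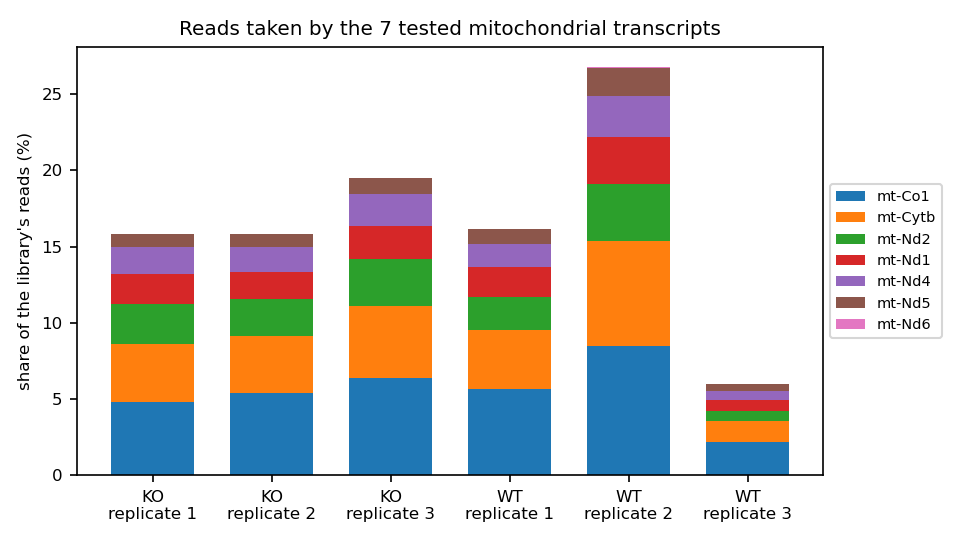
Each bar is 1 library and its height is the share of its reads, in percent, taken by the 7 tested mitochondrial transcripts, stacked by transcript. Reads are counted with 1 transcript kept per gene. The KO bars stand at 15.8% to 19.5% and the WT bars at 5.98% to 26.8%.

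Marker lists of other cells varied across the same libraries. Summed over 20 hepatocyte markers, the level was 144791, 182215 and 266652 normalised counts in KO replicates 1 to 3, against 95595, 116625 and 38741 in WT replicates 1 to 3. Summed over 7 B cell markers, it was 22094, 18019 and 11113 in KO libraries, against 15242, 11281 and 24655 in WT libraries. WT replicate 3 thus had the lowest mitochondrial share, the lowest hepatocyte sum and the highest B cell sum. In WT libraries the hepatocyte sum had the same order as the mitochondrial share, as had 4 more of the 9 marker sums. In WT replicates 1 to 3 these were 56046, 86925 and 46172 for endothelial, 13179, 33339 and 2221 for erythroid, 271995, 287704 and 163049 for macrophage, and 17613, 17934 and 12560.3 normalised counts for neutrophil markers. The T and NK cell sum, like that of B cells, had the opposite order, at 3883, 3329 and 7737 in WT replicates 1 to 3. Between genotypes, every KO library exceeded every WT library in the hepatocyte sum and not in the mitochondrial share. In KO libraries the hepatocyte sum rose from replicate 1 to 2, while the mitochondrial share was 15.8% in each. An order of 3 libraries can match without a link, and the share of all tested genes with this order was not computed. The part of cell mixture in the mitochondrial levels was not tested.

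Levels of single transcripts were compared between genotypes in normalised counts, which are reads divided by the authors' factor for the library. With limma, 0 of the 7 tested transcripts had an adjusted p under 0.05, where 2.44% of all 15619 tested genes passed, and 0 had an unadjusted p under 0.05, where 18.0% of all tested genes did. On recovered reads, edgeR's quasi-likelihood test and DESeq2 also called 0 of 7, where edgeR called 1.81% of all tested genes (1.41% higher and 0.397% lower in KO) and DESeq2 9.02% (6.14% higher and 2.88% lower). By limma 6 of the 7 log2 changes were above 0, and by edgeR and DESeq2 2 of 7, mt-Nd2 and mt-Nd4. The KO and WT values of all 7 overlapped, while those of 22.9% of all tested genes did not. Over all genes limma called 326 higher and 55 lower in KO, or 257 higher and 117 lower with scaling by reads outside the mitochondrial chromosome.

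Among the complex I transcripts, mt-Nd2 had 421191, 372705 and 503008 normalised counts in KO replicates 1 to 3, against 336792, 648525 and 84923 in WT replicates 1 to 3. The log2 change, on the scale of log2(value + 1), was 0.70 with a 95% interval of -1.59 to 2.99 (limma adjusted p = 0.784). The KO libraries fell within the WT range, which spanned 7.64-fold, while the KO range spanned 1.35-fold.

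The mt-Nd1 transcript had 312762, 273063 and 355828 normalised counts in KO libraries, against 306097, 540065 and 90947 in WT libraries. Its log2 change was 0.34, with an interval of -1.72 to 2.39. For mt-Nd4 the levels were 289191, 248418 and 337640 normalised counts in KO libraries, against 228535, 470332 and 69052 in WT libraries. All 3 of these complex I transcripts were highest in WT replicate 2 and lowest in WT replicate 3. The log2 change of mt-Nd4 was 0.57, with an interval of -1.42 to 2.56.

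mt-Nd5 was lower than these, at 139198, 133773 and 169612 normalised counts in KO libraries, against 151961, 324000.1 and 58506 in WT libraries. Its log2 change was 0.04, with an interval of -1.59 to 1.68, and the sign turned under other scalings. mt-Nd6, the transcript of the opposite strand, had 937, 1072 and 1531 normalised counts in KO libraries, against 1591, 2438 and 587 in WT libraries. All 3 KO libraries lay below WT replicates 1 and 2, and WT replicate 3 lay below all others. The log2 change of mt-Nd6 was -0.19, with an interval of -1.19 to 0.82 (limma adjusted p = 0.876). mt-Nd5 and mt-Nd6 overlap by 14 bases on opposite strands, and the sources used here do not give whether the counting used strand.

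For cytochrome b of complex III, mt-Cytb, levels were 611199, 568374 and 762696 normalised counts in KO libraries, against 595686, 1205619.7 and 174580 in WT libraries. The log2 change was 0.36, with an interval of -2.40 to 3.12 (limma adjusted p = 0.917). mt-Co1, the catalytic subunit of the oxidase, held the most reads of the 10 in every library, with 771092, 820400.2 and 1030169.9 normalised counts in KO libraries, against 878904, 1473082 and 265915 in WT libraries. Its log2 change was 0.31, with an interval of -2.82 to 3.43 (limma adjusted p = 0.94). WT replicates 2 and 3 enclosed all 3 KO libraries for both transcripts.

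Without WT replicate 3 the log2 changes of all 7 transcripts were below 0, from -0.77 for mt-Nd6 to -0.12 for mt-Nd2, and without WT replicate 2 all 7 were above 0, at up to 1.34 for mt-Nd2. None passed in either case, and mt-Nd6 without WT replicate 3 was the 1 with an unadjusted p under 0.05 (limma adjusted p = 0.216). The sign of the difference in level between genotypes therefore rested on which WT libraries were included.

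**Figure D3:**
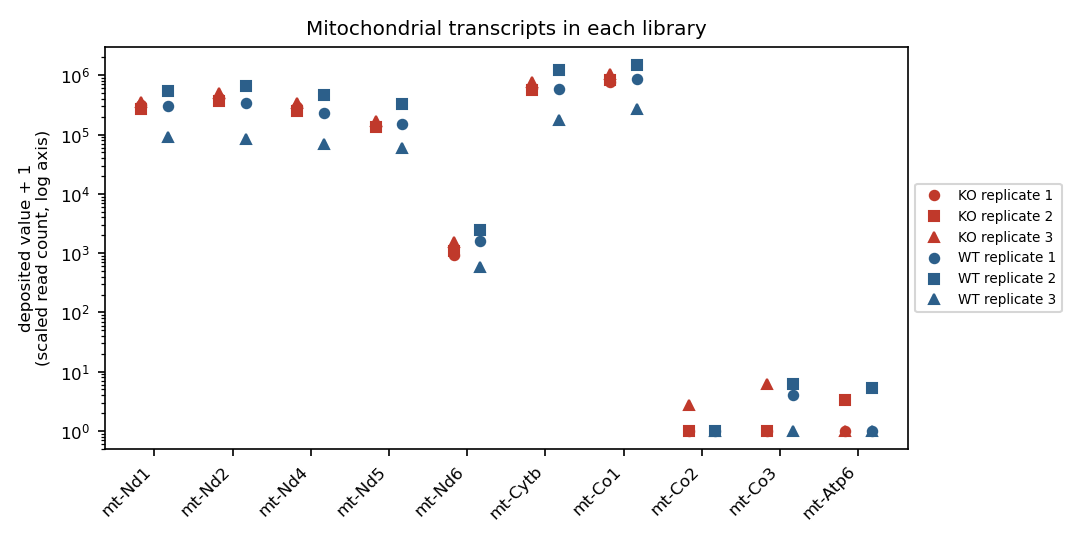
Deposited value plus 1 (scaled read count, log axis) of the 10 transcripts, with 3 KO points (left) and 3 WT points (right) per transcript and a marker shape per replicate number. The KO points of the 7 transcripts with reads lie between the points of WT replicates 2 and 3.

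The WT libraries differed from each other in these transcripts more than in most genes. The SD of log2 values over the 3 WT libraries was 1.05 for mt-Nd6 and 1.24 to 1.497 for the other 6, against a median of 0.32 over all tested genes. All 7 had an SD above 1 in WT, as 8.22% of all tested genes had. Among the KO libraries the SD was 0.18 to 0.37, against a median of 0.33 over all tested genes. With 3 libraries per group, the difference in spread between genotypes was not tested.

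Per kilobase of whole transcript, mt-Cytb and mt-Co1 stood highest. mt-Cytb was at 565929 ± 89248 normalised counts per kilobase in KO and 575724 ± 453141 in WT libraries (SD, n = 3 each), and mt-Co1 at 565623 ± 89043 in KO and 564811 ± 390685 in WT libraries. mt-Cytb exceeded mt-Co1 in 2 of 6 libraries, so their order did not hold beyond the spread. mt-Nd2 followed, above mt-Nd1 in 5 of 6 libraries, and mt-Nd1 was above mt-Nd4 and mt-Nd4 above mt-Nd5 in all 6. The level of mt-Nd5 per kilobase, 80881 ± 10590 in KO and 97673 ± 73833 in WT libraries, was 27.2 to 42.3 times that of mt-Nd6 within a library. These are levels in RNA selected for poly(A), and how far each transcript carries poly(A) was not measured.

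Over the bases outside a near-identical nuclear copy, the order of levels was different. mt-Co1 then stood at 822869.5 ± 129540.2 normalised counts per kilobase in KO and 821689 ± 568369 in WT libraries, above mt-Cytb in all 6 libraries. mt-Nd4 stood at 581175 ± 88976 per kilobase in KO and 509907 ± 402475 in WT libraries, and mt-Cytb exceeded it in 4 of 6. In this reckoning mt-Nd4 was above mt-Nd2 in all 6 libraries. The same reads were divided by fewer bases here, and the files do not show where in a transcript its reads lay.

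Ratios between the transcripts do not depend on how libraries are scaled, and some of them did not overlap between genotypes. There were 2.79 to 3.03 reads of mt-Nd2 for each read of mt-Nd5 in KO libraries, against 1.45 to 2.22 in WT libraries. KO replicates 1, 2 and 3 had ratios of 3.03, 2.79 and 2.97, against 2.22, 2.002 and 1.45 in WT replicates 1, 2 and 3. Every KO library was above every WT library, and the KO ratios were close to each other. The mean log2 ratio was 1.55 ± 0.06 in KO and 0.90 ± 0.32 in WT libraries (SD, n = 3 each), a difference of 0.65. An exact two-sided permutation test gave p = 0.1, the smallest that 3 against 3 libraries allow. Without WT replicate 3 the difference was 0.47.

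The ratio of mt-Nd4 to mt-Nd5 was 2.08, 1.86 and 1.99 in KO replicates 1 to 3, against 1.504, 1.45 and 1.18 in WT replicates 1 to 3. Again no values overlapped, and the log2 ratios differed by 0.53, or by 0.42 without WT replicate 3. mt-Nd2 and mt-Nd1 are neighbours on the genome with no near-identical copy among the annotated nuclear transcripts. Their ratio was 1.35, 1.36 and 1.41 in KO libraries, against 1.10, 1.20 and 0.934 in WT libraries. For mt-Nd2 to mt-Cytb it was 0.689, 0.656 and 0.660 in KO libraries, against 0.565, 0.538 and 0.486 in WT libraries. The log2 ratios of these pairs differed by 0.36 and 0.34, and neither pair overlapped between genotypes.

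Ratios to mt-Nd6 rest on less depth, and their log2 differences ran from 0.23 for mt-Nd5, whose ratios overlapped, to 0.88 for mt-Nd2. For each read of mt-Nd6 there were 449, 348 and 329 reads of mt-Nd2 in KO libraries, against 212, 266 and 145 in WT libraries, which did not overlap, and the log2 difference was 0.65 without WT replicate 3. It was 0.76 for mt-Nd4, 0.55 for mt-Cytb, 0.53 for mt-Nd1 and 0.50 for mt-Co1, none of which overlapped. mt-Nd6 had 629 to 1810 reads in KO and 1045 to 2322 in WT libraries. The RNA was selected for poly(A), and whether mt-Nd6 carries it as the other transcripts do was not measured. Among the 7 pairs whose ratios overlapped, that of mt-Cytb to mt-Nd1 was 1.95, 2.08 and 2.14 in KO libraries, against 1.95, 2.23 and 1.92 in WT libraries (exact two-sided permutation p = 0.8). That of mt-Nd1 to mt-Co1 was 0.406, 0.333 and 0.345 in KO libraries, against 0.348, 0.367 and 0.342 in WT libraries (exact two-sided permutation p = 0.9).

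Of the 21 pairs among the 7 transcripts, 14 had ratios that did not overlap between KO and WT, where 23.0% of all pairs of tested genes did not overlap. The exact two-sided permutation p was 0.1 for each of the 14. The 21 ratios share 7 transcripts and 6 libraries and are not independent. As shares of the reads of the 10 transcripts, mt-Nd2 took 16.0% ± 0.57 in KO and 12.9% ± 1.34 in WT libraries (SD, n = 3 each), and mt-Nd4 took 10.8% ± 0.55 in KO and 9.50% ± 0.51 in WT libraries. The share of mt-Nd5 was 5.46% ± 0.08 in KO and 6.96% ± 0.89 in WT libraries, and that of mt-Nd6 was 0.0432% ± 0.0059 in KO and 0.0649% ± 0.013 in WT libraries. The shares of these 4 did not overlap between genotypes, and those of mt-Nd1, mt-Cytb and mt-Co1 did. They come from the same reads as the ratios and depend on each other, so they are no separate result. No such share over all genes was computed for comparison.

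**Figure D4:**
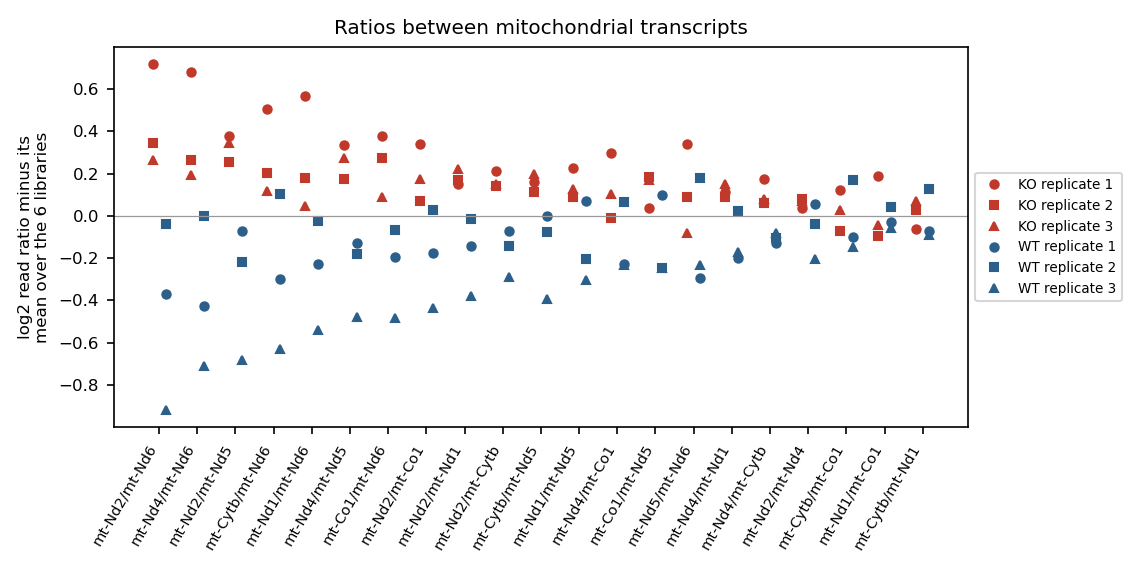
Log2 ratio of the reads of each pair of transcripts, less its mean over the 6 libraries, with 3 KO points (left) and 3 WT points (right) per pair. Each pair is written so that its KO mean is the higher one, and in 14 of 21 pairs all KO points lie above all WT points.

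Summed hepatocyte and endothelial markers also did not overlap between genotypes across these libraries. By limma and by edgeR 9 of 20 hepatocyte markers rose, and DESeq2 called 12. Over all tested genes edgeR called 1.81% and DESeq2 9.02%, and 18.0% had an unadjusted limma p under 0.05. Those that rose by limma included Tat, Tdo2 and Hpd, enzymes of amino acid breakdown, with log2 changes of 2.71, 2.33 and 2.78 (limma adjusted p of 0.0144, 0.0147 and 0.0147), where 2.09% of all tested genes rose. The median log2 change of the list was 1.77, against 0.05 over all tested genes. Of 17 endothelial markers 6 rose by limma, edgeR called 1 and DESeq2 13. Bmp2, Emcn and Tie1 were among those that rose, and the sum over the list was 98335 to 202592 normalised counts in KO and 46172 to 86925 in WT libraries. The 7 erythroid markers read, led by Hba-a1, Hba-a2 and Hbb-bs, had 0 calls by limma, edgeR or DESeq2, 6 with an unadjusted limma p under 0.05, a median log2 change of 3.20 and sums of 30738 to 268695 in KO and 2221 to 33339 in WT libraries. Hba-a1 and Hba-a2 are close paralogs between which reads may be split. The part of these cells in the ratios was not tested.

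The remaining marker lists were as follows. Over all tested genes 2.09% rose by limma, edgeR called 1.81% and DESeq2 9.02%, and 18.0% had an unadjusted limma p under 0.05. Of 15 stellate cell markers 2 rose by limma, Timp1 and Col1a1, with log2 changes of 1.62 and 1.22, and the sums were 37062 to 65267 normalised counts in KO and 21901 to 30852 in WT libraries. edgeR called 1 of the stellate and 0 of the cholangiocyte markers, and DESeq2 5 and 2. Of 9 cholangiocyte markers tested 1 rose by limma, Spp1, at a log2 change of 2.27, with sums of 16038 to 31193 in KO and 3599 to 8505 in WT libraries, and Cftr had no read in at least 1 library. Of 16 macrophage markers 1 fell by limma, Lyz2, at -6.20, where 0.352% of all tested genes fell. edgeR called 1 of the 16 and DESeq2 5. Clec4f and Marco, at log2 changes of 1.12 and -1.63, did not pass by limma (adjusted p of 0.0537 and 0.102) or edgeR (0.0703 and 0.0735) and passed by DESeq2 (0.00152 and 0.000393). The macrophage sum was 91213 to 109593 in KO and 163049 to 287704 in WT libraries. Lyz2 alone held 1335 ± 720 of it in KO and 89491 ± 23938 in WT libraries, and the sum without Lyz2 was not computed. The median log2 change of the 16 markers was -0.15, and 5 were above 0. None of 12 neutrophil, 7 B cell or 9 T and NK cell markers passed by limma or edgeR. DESeq2 called 1, 0 and 0 of them, 2, 0 and 0 had an unadjusted limma p under 0.05, and the lists had median log2 changes of -0.32, 0.04 and 0.14. Retnlg, Cd79a and Cd3g had the smallest p of these lists, at log2 changes of -1.17, 0.26 and 0.32.

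Measures of RNA handling were read beside them. By limma and edgeR 0 of 4 tested nuclear-retained long RNAs passed, and DESeq2 called 2, where it called 9.02% of all tested genes. The unadjusted limma p was under 0.05 for 3, as for 18.0% of all tested genes. The median log2 change was -0.79, with all 4 negative. Malat1 was at 6211, 8574 and 7766 normalised counts in KO libraries, against 15861, 11621 and 14648 in WT libraries, and Neat1 had a log2 change of -0.59. Of 15 genes of the stress response to tissue digestion 0 passed by limma or edgeR and DESeq2 called 1. The smallest p, and the 1 unadjusted limma p under 0.05, was that of Hspb1, a small heat shock protein, at a log2 change of 1.38 (limma adjusted p = 0.0614). The median of that list was 0.34, and its sums were 118095 to 222523 in KO and 116862 to 153169 in WT libraries. The values of Malat1, the gene of smallest p in its list, did not overlap between genotypes, as those of 22.9% of all tested genes did not. The part of RNA handling in the ratios was not tested.

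The nuclear genes of the respiratory chain were set beside the mitochondrial ones. Of 74 tested nuclear subunit genes 0 passed by limma or edgeR, DESeq2 called 1, of complex I, and 11 had an unadjusted limma p under 0.05. Over all tested genes limma called 2.44%, edgeR 1.81% and DESeq2 9.02%, and 18.0% had an unadjusted limma p under 0.05. Their median log2 change was 0.26, against 0.05 over all tested genes and 0.34 over the 7 mitochondrial transcripts. By complex, the medians were 0.32 for 36 genes of complex I, 0.30 for 4 of complex II, 0.27 for 8 of complex III, 0.22 for 12 of complex IV and 0.20 for 14 of complex V. Ndufv1, which carries the flavin site of complex I, was at 1375 ± 163 normalised counts in KO and 890.1 ± 112 in WT libraries (SD, n = 3 each; log2 change 0.63, limma adjusted p = 0.0973). Sdhb of complex II had a log2 change of 0.37, Uqcr11 of complex III 0.83, Cox8a of complex IV 0.58 and Atp5d of complex V 0.69, none of which passed.

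Summed over these nuclear genes, levels were 101384, 77330.5 and 81721 normalised counts in KO libraries, against 74776, 75345 and 67035 in WT libraries. Under the authors' scaling every KO library was above every WT library in this sum, which was not so for the mitochondrial transcripts. The lowest KO sum, 77330.5, lay close to the highest WT sum, 75345. The factor of WT replicate 3 was 1.78 by the authors and 1.44 by total reads, and the sum under that scaling was not computed. Taken singly, 22.9% of all tested genes had KO and WT values that did not overlap. The hepatocyte, endothelial, stellate cell and cholangiocyte marker sums were likewise higher in every KO library. Their part in the nuclear sum was not tested. The 7 mitochondrial transcripts together held 25.1, 31.3 and 38.7 normalised counts for each nuclear one in KO libraries, against 33.4, 61.9 and 11.1 in WT libraries. These KO ratios lay within the WT range.

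Genes that make and handle mitochondrial RNA were examined next. Of 18 tested genes of mitochondrial DNA transcription and replication 0 passed by limma, edgeR or DESeq2 and 1 had an unadjusted limma p under 0.05, with a median log2 change of 0.13. An unadjusted limma p under 0.05 was found for 18.0% of all tested genes. Top1mt, the mitochondrial topoisomerase, was at 104 ± 18.3 normalised counts in KO and 52.0 ± 26.2 in WT libraries (log2 change 1.09, limma adjusted p = 0.212), and Polg, the catalytic subunit of the mitochondrial DNA polymerase, had a log2 change of 0.22. Of 22 genes of mitochondrial RNA processing and stability 0 passed by any of these tools and 0 had an unadjusted limma p under 0.05, with a median of -0.02. Mrm2, a methyltransferase of mitochondrial ribosomal RNA, and Trnt1, which adds the CCA end to tRNAs, had the smallest p, at log2 changes of 0.87 and -0.34.

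Of all tested genes, 18.0% had an unadjusted limma p under 0.05 and DESeq2 called 9.02%. Of 37 mitochondrial ribosomal protein genes 0 passed by limma, edgeR or DESeq2 and 4 had an unadjusted limma p under 0.05. Their median log2 change was 0.17, and Mrps24 and Mrps10 were at 0.65 and 0.74. Of 11 regulators of mitochondrial biogenesis 0 passed by these tools and 2 had an unadjusted limma p under 0.05, with a median of -0.05. Creb1 was at -0.43 and Sirt3, a deacetylase of mitochondria, at 0.71. Of 10 mitophagy genes 0 passed by limma or edgeR, DESeq2 called 2 and 3 had an unadjusted limma p under 0.05, with a median of 0.14. Bnip3, a receptor for removal of mitochondria, was at 294 ± 84.7 normalised counts in KO and 126 ± 8.86 in WT libraries (log2 change 1.17, limma adjusted p = 0.0627), and Optn, an adaptor of the same pathway, had a log2 change of 0.93 (limma adjusted p = 0.0922).

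**Figure D5:**
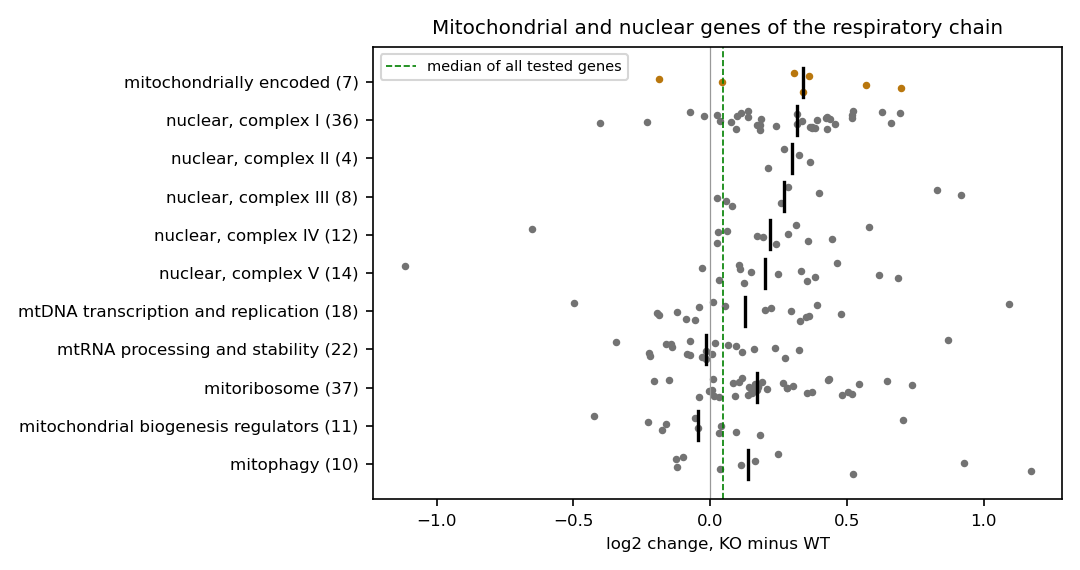
Log2 change of KO minus WT for each tested gene (points) of the mitochondrial transcripts and of the nuclear lists, with the number of genes in brackets, list medians as black bars and the median of all tested genes as a dashed line. The median is 0.34 for the mitochondrial transcripts and 0.20 to 0.32 for the nuclear genes of the 5 complexes.

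Genes whose profile over the 6 libraries was most like that of the 10 transcripts were taken from 9375 nuclear genes by Pearson's r with the mean log2(value + 1) of the 10. The profile stood at 12.08, 12.21 and 12.72 in KO libraries, against 12.32, 13.25 and 10.94 in WT libraries. This mean includes mt-Co2, mt-Co3 and mt-Atp6, whose few reads also move it between libraries. The r values without these transcripts were not computed. The highest r were those of Fabp5, a fatty acid binding protein, at 0.985, Gusb, a lysosomal glucuronidase, at 0.980, C1qb, a complement chain made by macrophages, at 0.974, Pld2 at 0.973 and Rab20 at 0.972. C1qb was at 6536, 7691 and 9431 normalised counts in KO libraries, against 7888, 14179 and 4614 in WT libraries, so that WT replicates 2 and 3 were again its extremes.

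The lowest r were those of Pax5, the transcription factor of B cell identity, at -0.995, Jakmip1 at -0.987, Alkbh8 at -0.983, Cr2, a complement receptor of B cells, at -0.978 and Ing1 at -0.976. Pax5 was at 1829, 1753 and 1339.5 normalised counts in KO libraries, against 1588, 1133 and 2679.5 in WT libraries. These values describe 6 libraries that share their scaling, and with 9375 genes ranked on 6 points they carry no p.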

How the data were processed

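Polyadenylated RNA was measured in 3 KO and 3 WT libraries, grouped by the labels' genotype. Each deposited table holds a signal per Ensembl transcript, named normalised counts in the header. Per the file headers and the values, the authors divided read counts by 1 factor per library: dividing by a library's smallest value above 0 gave a whole number, within 0.001, for 100% of them, so whole reads were recovered. GRCm38.p4, DESeq 1.8.3, HTSeq 0.5.3, SAMtools, STAR 2.4.0k and bcl2fastq 2.17 are named, without roles, per the submitters' processing notes.

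Transcripts were matched to the GENCODE M21 annotation of GRCm38, keeping the transcript of highest mean per gene. The main test was limma 3.58.1 on log2(value + 1), its prior following the mean level and genotype its only term, on 15619 genes kept by filterByExpr, with Benjamini-Hochberg adjustment and calls under 0.05. edgeR 4.0.16 with TMM factors on the recovered reads called 282 genes, and DESeq2 1.42.0 was run as well. Nuclear copies were found with blastn 2.17.0, at 95% identity or more over at least 200 bases.

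The transcripts and gene lists were chosen with earlier results of these data known. Named were the 10 transcripts, the copies, up to 4 genes of smallest p per functional list and 3 per marker list, of which some are given, and the 5 genes of highest and of lowest r. The lists cover the nuclear genes of the 5 complexes, mitochondrial DNA and RNA handling, ribosome, biogenesis, mitophagy, 9 cell types, nuclear-retained RNA and digestion stress. In simulated KO against WT data of 15619 genes, the calls held 11 of 50 genes with a set log2 change of 1, 34 of 50 at 2, 45 of 50 at 3 and 48 of 50 at 4. Precision is limited by 3 libraries per group.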

Additional observations from a re-analysis of the deposited data

How the results depend on the processing

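No transcript of the 10 passed under any of the 19 alternatives, of which the prior without a trend was added after the data were seen. Of 133 comparisons of a transcript's log2 change with an alternative, 20 turned the sign, 12 of them without leaving out a library. With edgeR the log2 changes of mt-Nd1, mt-Nd5, mt-Cytb and mt-Co1 were -0.0442, -0.323, -0.0752 and -0.0462, and with DESeq2 they were -0.0376, -0.317, -0.0692 and -0.0394. That of mt-Nd5 was -0.087 with limma-voom, -0.0116 with TMM factors, -0.0374 with total reads and -0.0318 with reads outside the mitochondrial chromosome. The cause was not tested. Leaving out 1 library gave ranges of -0.382 to 0.903 for mt-Nd1, -0.123 to 1.34 for mt-Nd2, -0.18 to 1.2 for mt-Nd4, -0.597 to 0.638 for mt-Nd5, -0.77 to 0.256 for mt-Nd6, -0.4 to 0.994 for mt-Cytb and -0.392 to 0.843 for mt-Co1. The lowest adjusted p in any alternative was 0.216. Without WT replicate 3 the share of reads differed by -4.4 percentage points and without WT replicate 2 by 5.99, the range over the 6 libraries left out. It was 0.16 over the reads of all transcripts, -0.147 relative to reads outside the mitochondrial chromosome and 0.759 for the whole mitochondrial chromosome, against 0.76, each within the spread between libraries.

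Over all genes, limma's 381 calls became 1409 with DESeq2, 233 with the transcripts of a gene summed, 10 without a trend in the prior, 539 with the replicate number as a block and 8 (without KO replicate 3) to 809 (without KO replicate 1) without 1 library. Same-numbered libraries did not deviate together from their group means, with correlations of -0.015, 0.088 and -0.142 for numbers 1, 2 and 3. KO replicate 1 deviated most like WT replicate 3 (r = 0.14). With 3 libraries per group, these correlations cannot settle whether the numbers pair the samples. The block changed no call among the 10 transcripts.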

Other observations

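Both mitochondrial ribosomal RNAs were highest in WT replicate 2 and lowest in WT replicate 3, as the 7 tested coding transcripts were. mt-Rnr1 was at 31630.3, 19012 and 25253 normalised counts in KO libraries, against 23423, 46463 and 8141 in WT libraries, and mt-Rnr2 was at 50611, 29196 and 40612 in KO libraries, against 35863, 68980.3 and 16436 in WT libraries. Neither passed limma's test, with log2 changes of 0.26 and 0.19 (limma adjusted p of 0.863 and 0.895).

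mt-Nd3, a further complex I transcript, and its nuclear copy showed an uneven split of reads, named here after its values were seen. The first 345 of the 348 bases of mt-Nd3 differ from Gm28438, on the chromosome 1 insert at chr1:24612775-24613119 in GRCm38, in 1 base, written T3C with positions counted from the first base of mt-Nd3. That base, in capitals, lies at position 9461 of the mitochondrial genome.
mt-Nd3, chrM:9459-9488, plus strand: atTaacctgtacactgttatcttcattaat
Gm28438, chr1:24613090-24613119, minus strand: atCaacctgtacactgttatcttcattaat
Gm28438 had 16, 7 and 30 reads in KO libraries and 0 in each of the 3 WT libraries, where a count of 0 allows up to 3 reads. The deposited tables hold no read sequences, so reads of Gm28438 and reads of an mt-Nd3 that carries T3C cannot be told apart, and whether KO and WT mice share the base at that position was not tested. mt-Nd3 had 13, 18 and 27 reads in KO libraries, against 32, 29 and 51 in WT libraries. In normalised counts mt-Nd3 was at 19.4, 21.4 and 22.8 in KO libraries, against 33.0, 30.5 and 28.6 in WT libraries. These values did not overlap, as those of 22.9% of all tested genes did not. The log2 change of mt-Nd3, -0.51, did not pass (limma adjusted p = 0.632). Gm28438 was too low to be tested.

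The chromosome 2 copies of mt-Co1 and mt-Co2 held reads in every library. Gm13340, which was 97.6% identical to mt-Co1 over its whole length, had 53, 115 and 148 reads in KO libraries, against 93, 164 and 60 in WT libraries, and Gm29216, the chromosome 1 copy of part of mt-Co1, had 6, 9 and 20 reads in KO libraries, against 11, 21 and 5 in WT libraries.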
